A study of Mus musculus with 8 samples.

Results

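The macrophage and monocyte identity genes are 31 genes that mark mononuclear phagocytes, and all 31 were found by symbol among the 49315 gene IDs of the count table. They were set into 4 classes by role: 11 genes of resident tissue macrophages, 5 genes of lysosomal proteins, 8 genes shared with monocytes and 7 genes of macrophages in general (pan-macrophage in the plots). Their RNA was measured by bulk sequencing of calvaria, the bones of the skull vault, in 4 knockout (KO) and 4 wild-type (WT) mice. KO mice (Girk3-/-) lacked Girk3 in all cells, a subunit of inwardly rectifying potassium channels whose gene is Kcnj9, and no other allele or agent is named for either genotype. All 8 mice were C57BL6 females aged 2 to 3 days, and each mouse gave 1 library, which holds every cell type of the bone and its attached tissue. Fewer macrophages and less RNA of these genes per macrophage cannot be told apart in such samples.

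Macrophages enter tissues before birth from the yolk sac and fetal liver and persist as resident cells, while circulating monocytes add to them later. Resident cells engulf dying cells and use complement C1q, scavenger receptors and lectins to recognise them, and lysosomal proteases then break the cargo down. In bone, macrophages lie on bone surfaces and in marrow and share their precursors and growth factor, M-CSF, with the bone-resorbing osteoclasts. The transcription factor PU.1, encoded by the member Spi1, is required for the macrophage, osteoclast and B cell lineages and binds purine-rich sites with the core GAGGAA.

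To show where such letters stand in these genes, RefSeq start windows (GRCm38.p6, 250 bases before to 50 after each annotated start) were searched on both strands. Windows were found for 22 of the 31 members, and the part before the start held GAGGAA in 13 of them (59.1%), against 25.9% of all 27025 genes with a window. The longer form GAGGAAGT, which contains the shorter, stood in 2 of the 22 (C1qc and Pf4; 9.09%), against 2.79% of all genes. By class, GAGGAA stood in 5 of 8 resident, 3 of 5 lysosomal, 3 of 6 monocyte-like and 2 of 3 general macrophage genes. A match is a description of the letters, not a binding site. The stretches below are shown because Ctss, Clec4a1 and Clec7a fell in KO bone, while Laptm5, Trem2, C1qb and Mrc1 stand for members that did not pass the test. Lyz2, Cybb, Ms4a7 and Spi1 fell too and are not shown. Lyz2 had a window without GAGGAA, and Spi1 had no window. Cybb and Ms4a7 held GAGGAA only when the 50 bases after the start were included. Whether these letters bear on any fall was not tested. Capitals mark GAGGAA or its reverse complement TTCCTC, and no base after the start is printed. Ctss is at chr3:95526592-95526657 (plus strand), Clec4a1 at chr6:122921601-122921696 (plus), Clec7a at chr6:129472840-129472905 (minus) and Laptm5 at chr4:130913248-130913313 (plus). Trem2 is at chr17:48346331-48346396 (plus), C1qb at chr4:136886201-136886260 (minus) and Mrc1 at chr2:14229204-14229413 (plus).
Ctss: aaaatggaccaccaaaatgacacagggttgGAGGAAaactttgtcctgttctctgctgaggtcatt
Clec4a1: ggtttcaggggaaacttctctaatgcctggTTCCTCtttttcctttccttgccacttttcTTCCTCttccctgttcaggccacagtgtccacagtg
Clec7a: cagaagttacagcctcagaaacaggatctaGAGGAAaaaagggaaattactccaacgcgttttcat
Laptm5: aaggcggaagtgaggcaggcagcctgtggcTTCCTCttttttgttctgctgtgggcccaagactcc
Trem2: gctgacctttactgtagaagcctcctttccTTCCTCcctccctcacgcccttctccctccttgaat
C1qb: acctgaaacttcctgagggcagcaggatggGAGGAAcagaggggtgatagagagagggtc
Mrc1: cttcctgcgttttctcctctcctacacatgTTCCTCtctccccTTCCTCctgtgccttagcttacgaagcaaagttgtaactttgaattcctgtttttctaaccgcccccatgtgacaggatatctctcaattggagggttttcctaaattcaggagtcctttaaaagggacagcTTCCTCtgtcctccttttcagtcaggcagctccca
In these stretches the match nearest the start lay 30 bases before it in C1qb and 187 bases before it in Clec4a1, and Mrc1 held 3 matches.

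Libraries held between 35.4 M and 54.3 M counts, and 17743 genes passed the count filter, all 31 members among them. The scarcest member, Timd4, held 12 counts in its lowest library. Kcnj9, the deleted gene, held 2, 5, 7 and 9 counts in KO libraries and 0, 0, 1 and 4 in WT libraries, which is opposite in direction to the labels. These counts are few, and the sources used here do not say which stretch of the gene was deleted. They therefore do not check the labels. KO and WT libraries are the libraries labelled so, and every direction given rests on those labels. Osteoblast and bone matrix markers were abundant in every library, with summed levels of 146794 to 193133 CPM (counts scaled to the size of the library) in KO and 169576 to 188106 CPM in WT libraries. Skeletal muscle RNA was scarce in KO replicates 2 and 3 and WT replicate 3, and these 3 libraries stood apart on the first principal component (38.9% of the variance). Values without them are given for each member whose call was lost, whose direction turned or whose log2 change moved by over 1.5 times.

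Most macrophage and monocyte genes lay lower in KO calvaria, and some of them passed the test. Of the 31 members, 7 fell and none rose in edgeR's quasi-likelihood test, with a threshold of 0.05 on p adjusted over all 17743 genes. Of all tested genes, 1.32% were called, 0.874% lower and 0.445% higher. The 7 were Lyz2 and Ctss of the lysosomal class, Clec7a, Cybb and Clec4a1 of the monocyte-like class, and Ms4a7 and Spi1 of the general macrophage class. No resident gene passed. The log2 change (KO over WT) was below 0 in 30 of the 31 members, with a median of -0.43, whereas 50.1% of all tested genes were below 0 and their median was 0.00. In 15 members every KO library lay below every WT library, a pattern found in 6.0% of all tested genes, and in no member did every KO library lie above (4.62% of all). With an unadjusted p under 0.05 there were 24 members, all of them lower in KO, where 17.4% of all tested genes had such a p and 9.11% had it and were lower. The summed level of the members was 769 ± 42.5 CPM in KO and 1030 ± 69.3 CPM in WT libraries (SD, n = 4 each).

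**Figure D1:**
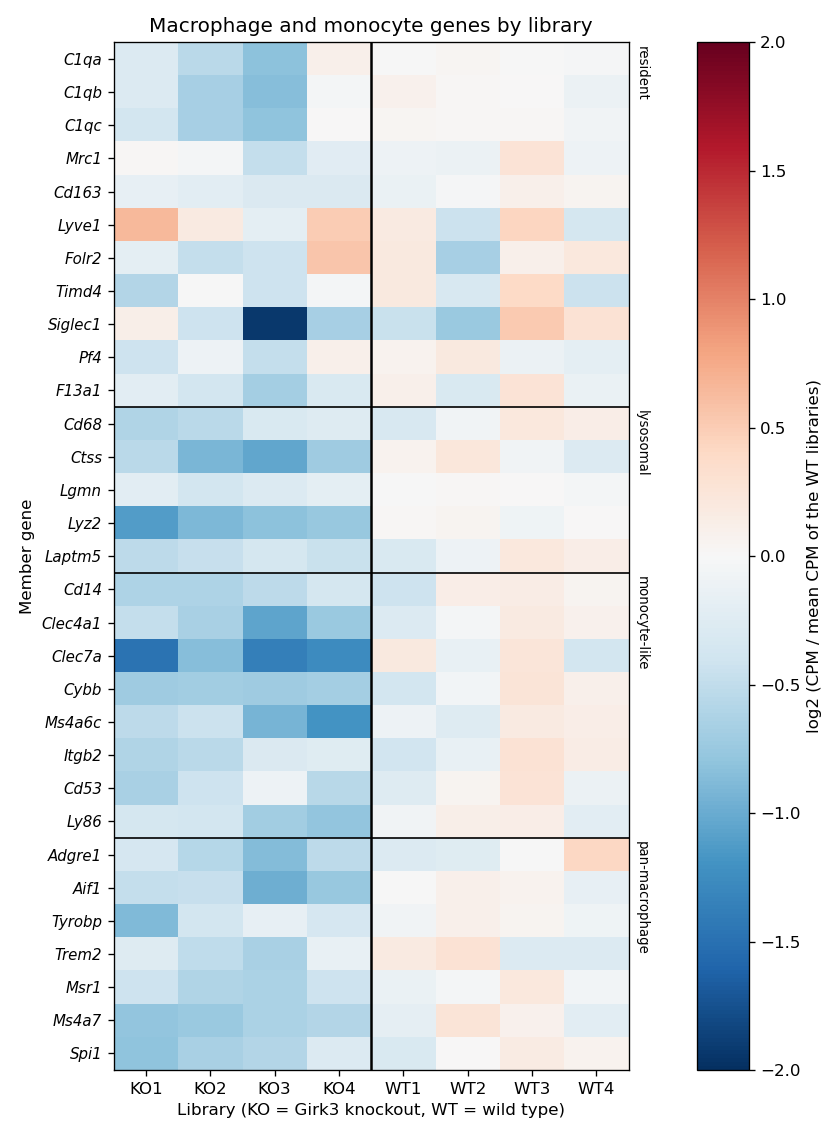
Level of each of the 31 member genes (rows, by class) in each library (columns, KO left of WT), as the log2 of its CPM over the mean CPM of the 4 WT libraries, with blue below and red above that mean. Lysosomal, monocyte-like and general macrophage genes are blue across the 4 KO libraries, whereas Lyve1 and Folr2 reach red in KO replicate 4.

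The number of calls rested on single libraries. It was 4, 1, 2 and 12 without KO replicates 1 to 4, and 9, 2, 2 and 4 without WT replicates 1 to 4. Of all genes tested in those fits, 0.598%, 0.227%, 0.326% and 1.68% were called lower without KO replicates 1 to 4, and 1.04%, 0.341%, 0.292% and 0.386% without WT replicates 1 to 4. Lyz2 was the only member called whichever library was left out. In the 5 libraries rich in muscle RNA (2 KO and 3 WT) Lyz2 alone was called (0.0325% of all genes were called lower, and Ctss, Clec4a1, Clec7a, Cybb, Ms4a7 and Spi1 had log2 changes of -0.63, -0.53, -1.26, -0.59, -0.64 and -0.45 and adjusted p from 0.309 to 0.546), 27 of 31 members were below 0 and the median log2 change was -0.33. Within the 3 libraries poor in it, both KO libraries lay below the WT library in 30 of 31 members, all but Pf4, against 39.5% of all tested genes. That comparison rests on 1 WT library, WT replicate 3, which was the highest WT library in 18 members. It cannot tell a difference between genotypes from a high level in that mouse. Within the 5 rich in muscle RNA, both KO libraries lay below all 3 WT libraries in 16 members (14.0% of all tested genes), and the KO mean lay below the WT mean in 27 (50.9%). DESeq2 called 17 members lower (3.04% of all genes) and limma-voom the same 7 (0.857%). The count was 6 with size factors of the DESeq2 kind (0.828%), 6 with library totals (0.558%), 9 with no count filter (0.737%), 10 with a muscle covariate (1.31%) and 4 with a replicate block (0.586%).

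**Figure D2:**
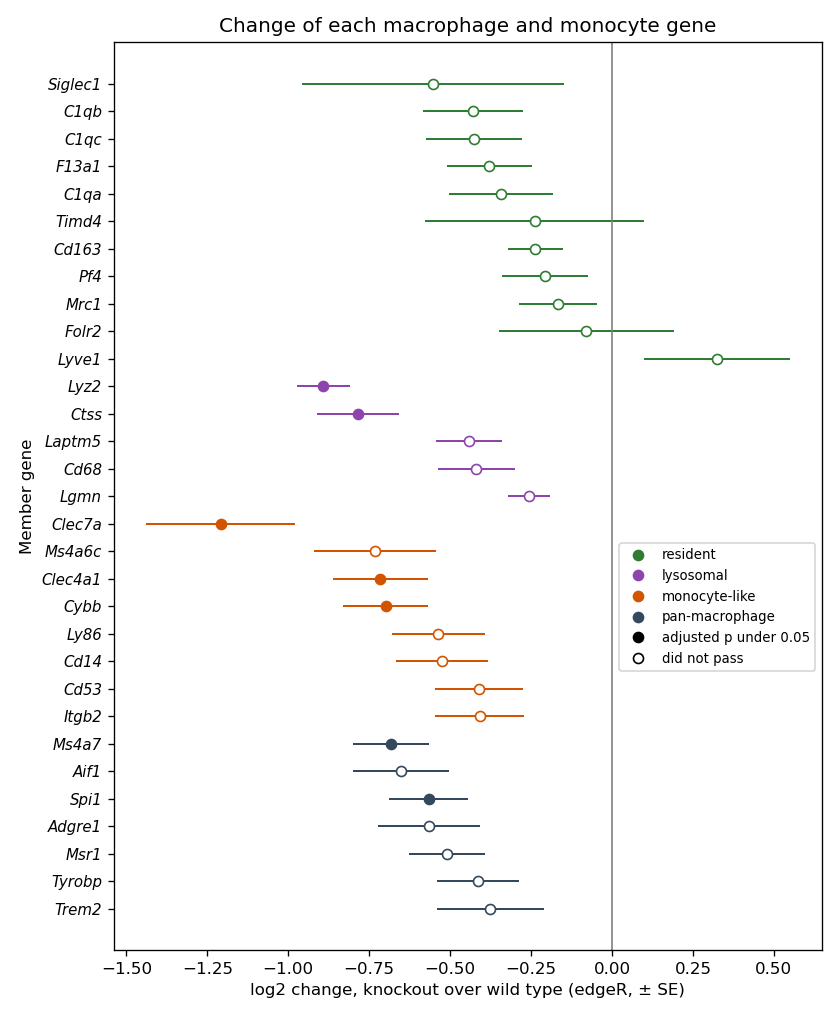
Log2 change (KO over WT, x axis) of each of the 31 members (y axis), as estimated by edgeR with its standard error, with filled points for members past the threshold. The 7 filled points lie between -1.21 and -0.57, and Lyve1 is the only member above 0.

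Among lysosomal genes, 2 of 5 fell and the other 3 lay below 0 (median log2 change -0.44). Lyz2 encodes the lysozyme of macrophages and granulocytes, an enzyme that cleaves bacterial cell walls. It was at 38.9, 45.3, 47.6 and 49.9 CPM in KO replicates 1 to 4, against 85.2, 87.8, 79.3 and 84.8 CPM in WT replicates 1 to 4. The groups were far apart, since the highest KO library did not come near the lowest WT library. Lyz2 fell by 0.89 ± 0.08 log2 units (SE; adjusted p = 0.000487), to 53.9% of the WT level. Its near-identical copy Lyz1 held at most 0.136 CPM in KO and 0.450 CPM in WT libraries. How reads that match both genes were counted was not tested. Granulocytes also make Lyz2, and the summed level of 16 neutrophil markers was 9.13 to 98.7 CPM in KO and 28.5 to 75.6 CPM in WT libraries. Of 15 neutrophil markers tested none passed (edgeR; unadjusted p under 0.05 in 0; DESeq2 called 0 and limma-voom 0), and their median log2 change was 0.02.

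Ctss encodes cathepsin S, the lysosomal protease that trims the invariant chain for antigen presentation. It was at 16.4, 12.6, 11.6 and 14.5 CPM in KO libraries, against 24.8, 27.7, 22.7 and 19.7 CPM in WT libraries. No KO library reached the lowest WT library. Ctss fell by 0.78 ± 0.13 log2 units (SE; adjusted p = 0.0135), and the call was lost without KO replicate 2 (adjusted p = 0.0559).

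The other lysosomal members differed less. Cd68, a glycoprotein of the lysosomal membrane, averaged 87.0 ± 10.4 CPM in KO and 116 ± 18.8 CPM in WT libraries (SD, n = 4 each; adjusted p = 0.114), with overlapping groups. Laptm5, a lysosomal membrane protein of blood cells in general, averaged 104 ± 4.98 CPM in KO and 141 ± 22.3 CPM in WT libraries (adjusted p = 0.0562). Lgmn, which encodes the asparagine-specific protease legumain, averaged 139 ± 7.85 CPM in KO and 167 ± 3.07 CPM in WT libraries (log2 change -0.26 ± 0.06, adjusted p = 0.0766). In Laptm5 and Lgmn every KO library was below every WT library, though neither passed the test. Of 30 lysosome genes that most cell types use, 2 fell and none rose, 28 lay below 0 and the median log2 change was -0.17. The 2 were Ctsc, the protease that activates granule proteases (-0.41 ± 0.07, adjusted p = 0.0154), and Grn, which encodes progranulin (-0.41 ± 0.09, adjusted p = 0.0487).

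Among monocyte-like genes, 3 of 8 fell and all 8 lay below 0 (median log2 change -0.62). Clec7a, a lectin receptor for fungal beta-glucan, was scarce, at 0.649, 1.01, 0.6999 and 0.760 CPM in KO libraries and 2.07, 1.63, 2.14 and 1.41 CPM in WT libraries. Its change was the largest of the 31 members, a fall of 1.21 ± 0.23 log2 units (SE; adjusted p = 0.0271). The annotation used here types Clec7a as a polymorphic pseudogene and the other members as protein coding. Any bearing of this on its level was not tested. The 4 KO libraries were all below the 4 WT libraries, but the call was lost without any 1 of KO replicates 1 to 3 and WT replicates 1 to 3 (adjusted p up to 0.0930).

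Cybb encodes the catalytic subunit of the phagocyte NADPH oxidase, which makes superoxide. It was at 5.36, 5.44, 5.35 and 5.51 CPM in KO libraries, against 6.83, 8.43, 10.5 and 9.44 CPM in WT libraries. The KO libraries were almost equal to each other, with an SD of 0.0750 CPM, and WT libraries spread more widely, with an SD of 1.55 CPM. Cybb fell by 0.70 ± 0.13 log2 units (SE; adjusted p = 0.0247). Clec4a1, a C-type lectin receptor of myeloid cells, was at 5.73, 5.07, 3.82 and 4.75 CPM in KO libraries, against 6.61, 7.76, 8.98 and 8.48 CPM in WT libraries. The groups did not overlap, and Clec4a1 fell by 0.72 ± 0.15 (SE; adjusted p = 0.0342). The Cybb call was lost without any 1 of KO replicates 1 to 3 and WT replicates 2 to 4 (adjusted p up to 0.0911), and the Clec4a1 call without any 1 of KO replicates 2 and 3 and WT replicates 2 to 4 (up to 0.115). Reads of Clec4a1 may be shared with its relatives. Clec4a2 was at 16.8 to 25.5 CPM in KO and 23.4 to 32.5 CPM in WT libraries, and Clec4a3 at 2.66 to 3.72 CPM in KO and 3.77 to 4.45 CPM in WT libraries; neither passed.

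Of the 5 monocyte-like genes that did not pass, Ms4a6c and Ly86 had KO libraries all below WT libraries. Ms4a6c, a membrane protein of the MS4A family, averaged 2.42 ± 0.573 CPM in KO and 4.03 ± 0.561 CPM in WT libraries (SD, n = 4 each; adjusted p = 0.0847). This value is less certain, because 53.1% of its exon bases overlap BE692007 on the opposite strand, which held 1.17 to 1.29 CPM in KO and 1.24 to 1.56 CPM in WT libraries and its relatives Ms4a6b and Ms4a6d may share reads with it. Those relatives had log2 changes of -0.62 (adjusted p = 0.0507) and -0.52 (adjusted p = 0.0751). Ly86, a secreted partner of a Toll-like receptor relative, had a log2 change of -0.54 ± 0.14 (SE; adjusted p = 0.0941). Cd14, the co-receptor for bacterial lipopolysaccharide, was at 4.39 to 5.27 CPM in KO and 5.08 to 7.44 CPM in WT libraries (adjusted p = 0.0987). Cd53, a tetraspanin of blood cells, and Itgb2, the shared beta chain of leukocyte integrins, had log2 changes of -0.41 each and overlapping groups (adjusted p = 0.160 and 0.172).

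Among general macrophage genes, 2 of 7 fell and all 7 lay below 0 (median log2 change -0.57). Ms4a7, another MS4A family gene, was at 7.10, 7.36, 7.88 and 8.20 CPM in KO libraries, against 10.8, 14.6, 13.004 and 10.6 CPM in WT libraries. The groups did not overlap, and Ms4a7 fell by 0.68 ± 0.12 log2 units (SE; adjusted p = 0.0183). The call was lost without any 1 of KO replicates 2 and 3 and WT replicates 2 and 3 (adjusted p up to 0.0719). Spi1, which encodes PU.1, was at 28.0, 31.1, 32.3 and 40.3 CPM in KO libraries, against 39.6, 49.2, 54.8 and 51.4 CPM in WT libraries. KO replicate 4 lay just above WT replicate 1, so the groups overlapped. Spi1 fell by 0.57 ± 0.12 (SE; adjusted p = 0.0488), close to the threshold. It did not pass under size factors of the DESeq2 kind, nor under scaling by library totals. It was also lost without any 1 of KO replicates 1 to 3 and WT replicates 2 to 4 (adjusted p up to 0.169).

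**Figure D3:**
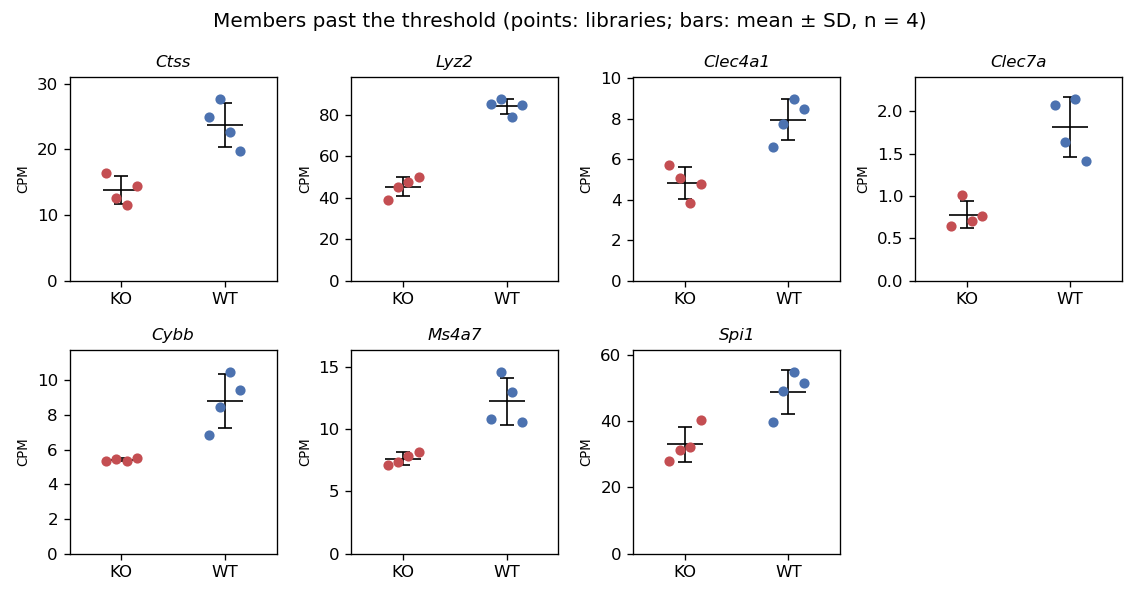
Level in CPM (y axis, from 0) of the 7 members past the threshold in KO and WT libraries, with points for libraries and bars for the mean and SD of 4 libraries. In 6 of the 7 panels all KO points lie below all WT points, and in Spi1 KO replicate 4 reaches 40.3 CPM against 39.6 CPM in WT replicate 1.

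The remaining general macrophage genes did not pass. Aif1, an actin-bundling protein of macrophages and microglia, averaged 3.46 ± 0.573 CPM in KO and 5.44 ± 0.439 CPM in WT libraries (SD, n = 4 each; adjusted p = 0.0536). Msr1, a scavenger receptor for modified lipoproteins, averaged 5.46 ± 0.444 CPM in KO and 7.77 ± 0.816 CPM in WT libraries (adjusted p = 0.0537), and its log2 change of -0.51 was -0.33 in the 5 libraries rich in muscle RNA. Adgre1, which encodes the F4/80 antigen, was at 13.6 to 19.6 CPM in KO and 20.5 to 33.1 CPM in WT libraries (adjusted p = 0.115). The KO libraries were below the WT libraries in all 3 of these genes and in Tyrobp. Tyrobp, the signalling adaptor of several myeloid receptors, was at 36.6, 52.3, 60.4 and 53.3 CPM in KO libraries, against 64.1, 72.3, 70.04 and 63.7 CPM in WT libraries (log2 change -0.41 ± 0.13, adjusted p = 0.138). Trem2, a lipid-sensing receptor that signals through that adaptor, was at 4.29 to 6.06 CPM in KO and 5.52 to 8.19 CPM in WT libraries (adjusted p = 0.268). Trem2 was the only 1 of the 7 besides Spi1 whose groups overlapped.

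No resident macrophage gene passed. Of the 11 tested in edgeR, 4 had an unadjusted p under 0.05, and DESeq2 and limma-voom called 0 as well. Their log2 changes ran from -0.55 to 0.32 with a median of -0.24, and 1 of the 11, Cd163, had KO libraries all below WT libraries. The median was -0.29 over the 6 genes C1qa, C1qb, C1qc, Lyve1, Folr2 and Timd4, and -0.13 over the 11 in the 5 libraries rich in muscle RNA.

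C1qa, C1qb and C1qc encode the 3 chains of C1q, the recognition molecule of the classical complement pathway, and lie beside each other on chromosome 4. C1qa was at 25.98, 21.6, 17.8 and 33.6 CPM in KO libraries, against 31.2, 32.03, 31.1 and 30.9 CPM in WT libraries. C1qb was at 25.3, 19.3, 16.9 and 29.8 CPM in KO libraries, against 32.5, 31.3, 30.7 and 28.3 CPM in WT libraries. C1qc was at 21.8, 17.8, 16.2 and 28.4 CPM in KO libraries, against 29.0, 28.6, 28.6 and 26.8 CPM in WT libraries. The 3 chains kept 1 order across the KO libraries, lowest in replicate 3 and highest in replicate 4, while WT libraries were nearly level. The SD of C1qa was 6.78 CPM in KO and 0.499 CPM in WT libraries (n = 4 each). The log2 changes were -0.34 ± 0.16, -0.43 ± 0.15 and -0.43 ± 0.15 (SE; adjusted p = 0.306, 0.192 and 0.180). The values depended on which KO library was left out. Without KO replicate 4 all 3 chains passed, with log2 changes of -0.52, -0.58 and -0.60 and adjusted p of 0.0286, 0.0328 and 0.0144. Without KO replicate 3 the changes were -0.21, -0.31 and -0.32, and none passed. In the 5 libraries rich in muscle RNA they were -0.07, -0.15 and -0.16 (adjusted p = 0.903, 0.742 and 0.750).

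**Figure D4:**
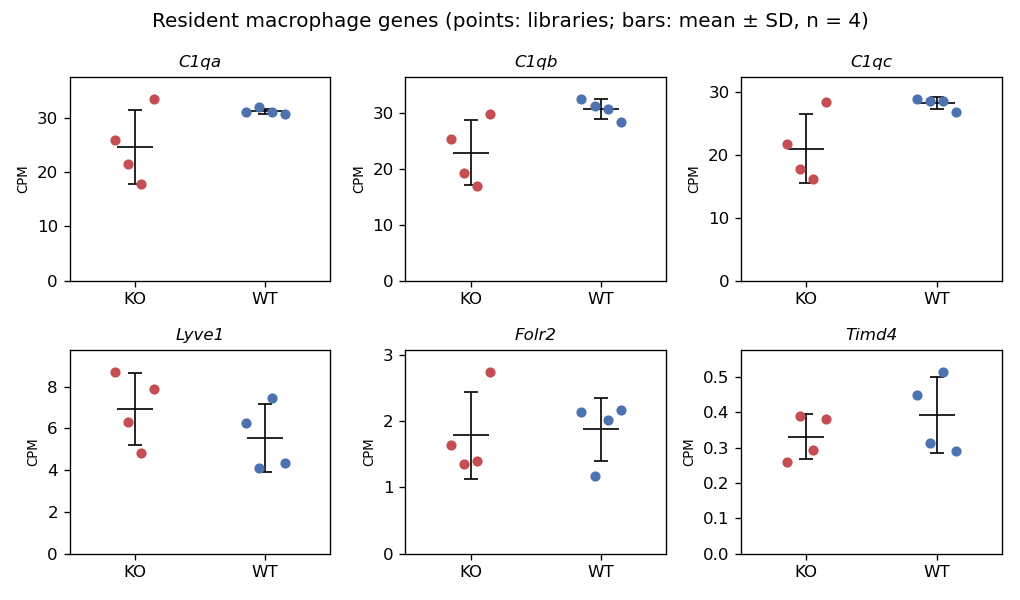
Level in CPM (y axis, from 0) of C1qa, C1qb, C1qc, Lyve1, Folr2 and Timd4 in KO and WT libraries, with points for libraries and bars for the mean and SD of 4 libraries. KO and WT points overlap in all 6 panels, and the C1q chains spread more widely in KO than in WT libraries.

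Lyve1, a hyaluronan receptor of perivascular macrophages and of lymphatic vessels, was the only member above 0. It was at 8.70, 6.29, 4.83 and 7.88 CPM in KO libraries, against 6.25, 4.08, 7.46 and 4.33 CPM in WT libraries. The groups overlapped, and the log2 change was 0.32 ± 0.23 (SE; adjusted p = 0.490). It ran from 0.19 (without KO replicate 1) to 0.51 (without WT replicate 3) when 1 library was left out, and was 0.77 in the 5 libraries rich in muscle RNA (adjusted p = 0.354). Of 6 lymphatic endothelial markers tested, none passed (edgeR; unadjusted p under 0.05 in 0; DESeq2 called 0 and limma-voom 0), 4 lay above 0 and the median log2 change was 0.21. The summed level of the 7 listed was 80.4 to 101 CPM in KO and 80.9 to 97.2 CPM in WT libraries, with Ccl21a at 0 counts in every library. Their part in the Lyve1 value was not tested.

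Folr2, the folate receptor of resident macrophages, was at 1.64, 1.35, 1.40 and 2.74 CPM in KO libraries, against 2.14, 1.18, 2.01 and 2.173 CPM in WT libraries (log2 change -0.08 ± 0.27, adjusted p = 0.912). Its direction changed to above 0 without KO replicate 2 (0.04) or KO replicate 3 (0.02). The value is also uncertain because 63.1% of its exon bases overlap Gm10602 on the opposite strand, at 5.89 to 7.09 CPM in KO and 4.42 to 5.65 CPM in WT libraries. Timd4, a receptor for phosphatidylserine on dying cells, was scarce, at 0.260, 0.390, 0.294 and 0.380 CPM in KO libraries, against 0.450, 0.312, 0.514 and 0.290 CPM in WT libraries. These levels overlapped (log2 change -0.24 ± 0.34, adjusted p = 0.760), and the change was -0.13 in the 5 libraries rich in muscle RNA.

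Of the other resident genes, Mrc1, the mannose receptor, was at 50.1 to 70.8 CPM in KO and 64.3 to 84.9 CPM in WT libraries (log2 change -0.17 ± 0.12, adjusted p = 0.508). Cd163, the receptor that clears haemoglobin bound to haptoglobin, averaged 11.2 ± 0.492 CPM in KO and 13.3 ± 0.951 CPM in WT libraries (SD, n = 4 each; adjusted p = 0.182). F13a1, which encodes the A subunit of a clotting transglutaminase, averaged 20.2 ± 2.70 CPM in KO and 26.3 ± 4.61 CPM in WT libraries (adjusted p = 0.174). Pf4 encodes a chemokine made by platelets and by some resident macrophages. It was at 16.3 to 24.4 CPM in KO and 19.99 to 26.3 CPM in WT libraries (adjusted p = 0.446). Of 6 megakaryocyte markers tested, 5 lay above 0 and none passed (edgeR; unadjusted p under 0.05 in 1; DESeq2 called 1 higher and limma-voom 0). Their summed level, over the 10 listed, was 15.4 to 23.0 CPM in KO and 15.02 to 17.1 CPM in WT libraries. Siglec1, a sialic acid receptor of macrophages, was at 2.62, 1.81, 0.632 and 1.52 CPM in KO libraries, against 1.78, 1.44, 3.49 and 2.96 CPM in WT libraries. The spread within each group was as wide as the gap between them (log2 change -0.55 ± 0.40, adjusted p = 0.516). In the 5 libraries rich in muscle RNA, Mrc1, Folr2 and Siglec1 had log2 changes of 0.02, 0.26 and 0.02, and F13a1 of -0.15.

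**Figure D5:**
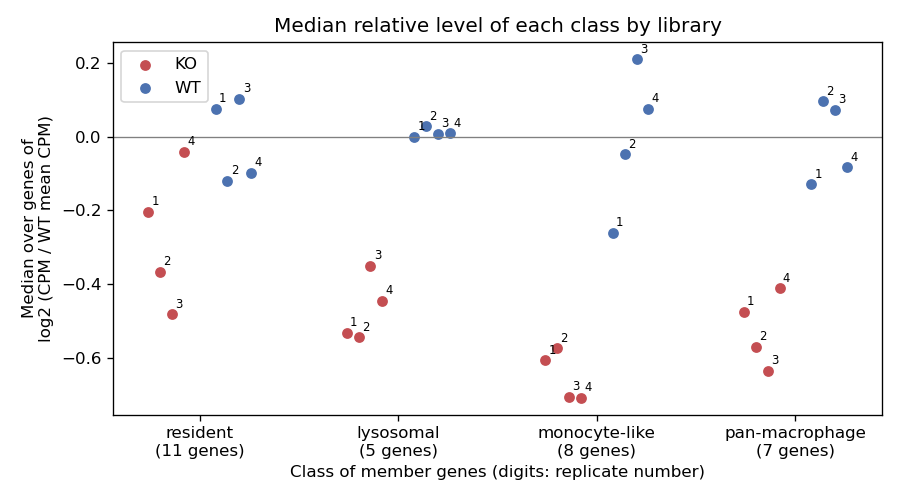
Median over the genes of each class of the log2 of CPM over the mean CPM of the WT libraries (y axis), for each KO and WT library, with digits for replicate numbers. Lysosomal, monocyte-like and general macrophage medians of all KO libraries lie below those of all WT libraries, whereas the resident median of KO replicate 4, -0.04, lies among the WT libraries.

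By library, the resident median relative to the WT mean was -0.21, -0.37, -0.48 and -0.04 in KO libraries on the log2 scale, against 0.07, -0.12, 0.10 and -0.10 in WT libraries. The monocyte-like median was -0.61, -0.58, -0.71 and -0.71 in KO libraries, against -0.26, -0.05, 0.21 and 0.08 in WT libraries. KO replicate 3 was the lowest KO library in 16 of the 31 members and KO replicate 1 in 11, and WT replicate 3 was the highest WT library in 18. To compare classes by a test, the gene of highest level per kilobase of exon in each class was set against that of the resident class, which was Pf4. The log2 ratio of Cd68 to Pf4 was 2.15 ± 0.27 in KO and 2.34 ± 0.39 in WT libraries (SD, n = 4 each; difference -0.19, exact two-sided permutation p = 0.371, 0.557 adjusted over 3 ratios). Differences were -0.22 for Tyrobp (exact permutation p = 0.314) and -0.18 for Itgb2 (exact permutation p = 0.571). No ratio passed, and the smallest unadjusted exact permutation p that 4 against 4 libraries can give is 0.0286. With Mrc1 in place of Pf4 the differences were -0.24 for Cd68, -0.27 for Tyrobp and -0.22 for Itgb2. With C1qa they were -0.03, -0.06 and -0.01, and none passed with either gene. The test had little room to detect a difference, and the smaller median of resident genes is a description without a test.

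Per kilobase of exon, the order of levels was much the same in both genotypes. Tyrobp was highest, at 75.9 ± 15.03 CPM per kilobase in KO and 101 ± 6.46 in WT libraries (SD, n = 4 each), followed by Cd68, Lgmn and Lyz2 in both. Cd68 was at 69.2 ± 8.24 CPM per kilobase in KO and 92.6 ± 14.96 in WT libraries. The ranges of mean ± SD of Tyrobp and Cd68 thus overlapped in both groups. Laptm5, Pf4, C1qa and C1qb followed at 20.96 to 27.4 CPM per kilobase in KO and 28.2 to 37.2 in WT libraries. Timd4, Siglec1 and Clec7a were lowest, at 0.152, 0.230 and 0.296 CPM per kilobase in KO and 0.180, 0.338 and 0.687 in WT libraries. Lyve1 stood in place 19 of 31 in KO and in place 23 in WT libraries.

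Other genes of these cells mostly lay below 0 too. Of 38 other macrophage and monocyte genes tested, 6 fell and none rose (edgeR; 0.874% of all tested genes fell). On the log2 scale 34 lay below 0 and 4 above, with a median of -0.39. Every KO library lay below every WT library in 17 of them (6.0% of all tested genes) and above in 1 (4.62%). Like the members, this list was chosen with earlier results of these data known. Ccr2, the receptor that brings monocytes into tissue, was at 2.88 to 4.26 CPM in KO and 5.65 to 8.51 CPM in WT libraries (adjusted p = 0.0127). Cx3cr1, the fractalkine receptor, was at 12.3 to 18.0 CPM in KO and 22.9 to 25.97 CPM in WT libraries (adjusted p = 0.0111). The C-type lectin gene Clec4n and the surface glycoprotein gene Cd52 fell by 0.81 and 0.77 on the log2 scale (adjusted p = 0.0223 and 0.0228). Fcer1g, also among the 6 that fell, lies on chromosome 1 as Kcnj9 does. None of the 31 members lies within 5 Mb of Kcnj9, but the distance of Fcer1g and of the other genes of this list to Kcnj9 was not measured.

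In the growth factor axis, Csf1, which encodes M-CSF, was at 95.6 to 103 CPM in KO and 122 to 133 CPM in WT libraries and fell by 0.35 ± 0.06 log2 units (SE; adjusted p = 0.0223). Its receptor gene Csf1r was at 183, 200, 212 and 227 CPM in KO libraries, against 230, 281, 347 and 320 CPM in WT libraries. The groups did not overlap, and Csf1r stayed just outside the threshold (log2 change -0.52 ± 0.12, adjusted p = 0.0537). Il34, the other ligand of that receptor, was at 3.97 to 5.40 CPM in KO and 4.51 to 5.96 CPM in WT libraries (adjusted p = 0.476). Of 15 transcription factor genes of myeloid cells besides Spi1, 2 fell, none rose and 11 lay below 0 (median -0.27). Their summed level was 805 to 879 CPM in KO and 830 to 873 CPM in WT libraries. Nr4a1, an immediate early gene that patrolling monocytes need, fell by 0.58 ± 0.09 log2 units (SE; adjusted p = 0.0121). Which cells of the calvaria express Nr4a1 was not tested.

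Osteoclasts express several of the members, Cd68, Spi1 and Tyrobp among them. Of 16 osteoclast markers all 16 lay below 0 (median -0.42) and none passed (edgeR; unadjusted p under 0.05 in 12; DESeq2 called 8 and limma-voom 1). Their summed level was 4508 to 6702 CPM in KO and 6324 to 9327 CPM in WT libraries. B cells share Spi1, Cd53 and Ly86. Of 11 B cell markers, 9 lay above 0 and none passed (edgeR; unadjusted p under 0.05 in 1; DESeq2 called 0 and limma-voom 0), with summed levels of 45.2 to 78.7 CPM in KO and 49.96 to 61.3 CPM in WT libraries. Of 5 microglia markers tested, 3 lay below 0 and 2 above (median -0.04), and none passed (edgeR; unadjusted p under 0.05 in 2; DESeq2 called 1 lower and limma-voom 0). Gpr84 was at 0.339 to 0.950 CPM in KO and 1.14 to 1.76 CPM in WT libraries (log2 change -1.03, adjusted p = 0.132) and P2ry12 at 2.172 to 2.77 CPM in KO and 2.52 to 4.69 CPM in WT libraries (-0.61, adjusted p = 0.151). The sixth marker of the list, Sall1, failed the count filter. The summed level of the list was 923 to 1115 CPM in KO and 962 to 1106 CPM in WT libraries. Gpr84 and P2ry12 make up little of that sum, so it mostly reports the other markers of the list. Which cells of the calvaria express those markers was not tested, and the sum is not a measure of microglia. The part of these cell types in the member values was not tested.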

How the data were processed

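Raw counts per Ensembl gene ID, with no normalization, were deposited by the authors for 4 KO and 4 WT libraries. The submitters' processing notes name STAR 2.5.2b, bcl2fastq 2.17, Subread 1.5.2 (featureCounts) and mm10. Neither an annotation release nor a strand setting is given in the sources used here, and genes that overlap on opposite strands may share reads. Groups came from the sample titles, with 4 mice per genotype per the labels' protocols. No 2 libraries of a group agreed within sampling noise.

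Symbols were matched for 48970 IDs; coordinates and exon lengths came from GENCODE mouse release 21 on the same build. Counts were filtered with filterByExpr (minimum count 10, minimum total 15) and scaled with TMM factors (0.972 to 1.04). The main comparison of KO with WT used edgeR 4.0.16 in R 4.3.3 (quasi-likelihood test) and Benjamini-Hochberg adjusted p over 17743 genes, with a threshold of 0.05. Alternatives used DESeq2 1.42.0, limma 3.58.1 (voom), other scalings, no filter, a replicate block, a muscle covariate and left-out libraries. The test was tried on simulated counts. CPM were computed from the deposited counts over library totals times the TMM factor, and 1 count was worth at most 0.0283 CPM before that factor. The precision of low levels is limited by counting error, which floors of 3 counts (at most 0.0848 CPM) describe alone.

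The members and all lists were chosen with earlier results of these data known. All 31 members are named. Every library is given for members past the threshold and for the 6 resident genes of the rule, and for other members that show a feature of the data; from other lists at most 4 genes of smallest p were named, and others where said. Figures were drawn with matplotlib 3.10.9. Some genes of the other lists are not reported here by name.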

Additional observations from a re-analysis of the deposited data

Results flagged for a closer look

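In 3 of 72 groups of 4 libraries, 1 library stood apart from its group; about 3.6 such groups would turn up by chance. Mrc1 was at 84.9 CPM in WT replicate 3, against 64.3 to 65.3 CPM in the other WT libraries. C1qc was at 26.8 CPM in WT replicate 4, against 28.6 to 29.0 CPM in the others. Folr2 was at 1.18 CPM in WT replicate 2, against 2.01 to 2.173 CPM in the others.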

How the results depend on the processing

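The 7 called members became 17 in DESeq2 (3.04% of all tested genes called lower there), 4 with the replicate block and 1 without the 3 muscle-poor libraries; over the left-out libraries they ran from 1 to 12. The 10 that DESeq2 added included Laptm5, Lgmn, Aif1, Msr1 and Tyrobp. All called members were lower in KO in every setting run. The 6 other macrophage and monocyte genes called became 12 with no filter on low counts, 16 in DESeq2, 10 with the muscle covariate and 0 without the 3 muscle-poor libraries, where 6 genes in all were called lower, and ran from 2 to 10 over the left-out libraries. The median log2 change of the general macrophage class was -0.45 without the muscle-poor libraries, and that of the lysosomal class ran from -0.53 to -0.36 over the left-out libraries. Without the muscle-poor libraries Mrc1 (0.020), Folr2 (0.26) and Siglec1 (0.017) lay above 0, and Folr2 ran from -0.35 to 0.045 over the left-out libraries. The causes were not tested, and the part that the smaller number of libraries plays was not separated out. The replicate numbers gave no clear sign of pairing: same-numbered libraries had correlations of deviations from -0.18 to 0.34, and 1 of 4 KO libraries correlated best with its own number. The highest correlation, 0.56, joined KO replicate 2 and WT replicate 3, both poor in muscle RNA, so this check cannot settle whether samples were paired. With the block, Ctss, Lyz2 and Spi1 kept their calls, Clec4a1, Clec7a, Cybb and Ms4a7 did not, and Cd68 was called. Timd4 had the fewest counts, 12 in its lowest library.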

Other observations

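Among antigen presentation genes of the dendritic cell list, Cd74, the invariant chain that Ctss trims, was at 6.37 to 11.1 CPM in KO and 12.96 to 18.2 CPM in WT libraries and fell by 0.83 on the log2 scale (edgeR adjusted p = 0.0371). H2-Aa, an MHC class II chain, was at 2.69 to 4.45 CPM in KO and 5.40 to 5.91 CPM in WT libraries (adjusted p = 0.0575). Of the 10 genes of that list tested, 1 fell, none rose, 7 lay below 0 and 3 above. Their log2 changes ran from -0.83 to 1.26, so the largest change of the list was upward. Every KO library lay below every WT library in 2 of these genes and above every WT library in 1. Among 11 complement genes tested, the anaphylatoxin receptor gene C5ar1 fell by 0.74 (adjusted p = 0.0190), and C3ar1 was at 10.5 to 14.5 CPM in KO and 14.9 to 19.0 CPM in WT libraries (adjusted p = 0.0556). Of 11 erythroid genes tested, 9 lay above 0, while Tfrc, the transferrin receptor gene, fell by 0.75 (adjusted p = 0.0167). No mast cell, blood endothelial or T and NK cell marker passed (edgeR). Of the 6, 8 and 4 markers tested, 0, 0 and 2 had an unadjusted p under 0.05, and DESeq2 called 0, 0 and 1 lower.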
